A study of Mus musculus with 78 samples.

Results

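The glycine receptor subunits, the protein that anchors them and the glial glycine carrier form a set of 6 genes: Glra1, Glra2, Glra3, Glrb, Gphn and Slc6a9. They were chosen by name, and both deposited count tables list all 6 among 55367 gene symbols. The data were read counts from poly(A) RNA of 7 dissected brain regions of 12 C57BL6/J mice, in 78 libraries. ACSS2 KO mice carried a constitutive CRISPR deletion in Acss2, the gene for a synthetase that turns acetate into acetyl-CoA, from exon 3 to exon 7, in founders backcrossed for 3 generations. WT mice lacked it, and the labels do not say whether they were littermates.

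The KO mice were males 1, 2 and 10 and females 4, 5 and 6. The WT mice were males 3, 12 and 13 and females 11, 23 and 24. Every mouse, adult and housed singly, had ethanol by the drinking in the dark protocol, which brings on high intake in short sessions. After 1 week of habituation, ethanol at 15% by volume was offered beside water for 2 h on days 1 to 3 and for 4 h on day 4, and a second week followed in which the sessions offered ethanol without water. No mouse without ethanol was in the series, so the WT controls had access to it too. Each region had 6 KO and 6 WT libraries, except for 5 WT in the amygdala and the cortex, and 4 KO and 4 WT in the prefrontal cortex.

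Glycine receptors are pentameric chloride channels opened by glycine. Alpha subunits (Glra1, Glra2, Glra3) carry most of the binding site, while the beta subunit (Glrb) binds gephyrin (Gphn), the scaffold that holds glycine and many GABA-A receptors at inhibitory synapses. Alpha1 with beta is the main adult form in spinal cord and brainstem, alpha2 is the main early form and persists in the forebrain, and ethanol can enhance currents through these channels. Slc6a9 encodes GlyT1, a mainly glial transporter that clears glycine, also near NMDA receptors, where glycine is a co-agonist. Slc6a5 encodes GlyT2, which refills the terminals of glycinergic neurons.

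Levels are given as CPM, a gene's counts scaled to the library's column total. The deeper set, 47 libraries of both striatal regions, dorsal hippocampus and amygdala, held 4454420 to 14487778 counts, and the shallower set, 31 libraries of ventral hippocampus, prefrontal cortex and cortex, held 629635 to 1228828. A floor of 3 counts equals 0.207 to 0.673 CPM in the deeper set and 2.44 to 4.76 CPM in the shallower one. Such floors cover counting error only, as reads without molecular identifiers are not independent molecules. Sample numbering restarts between the sets, so region and set cannot be told apart across them, and regions were tested within a set. Acss2 checked the genotype labels, at 0.971 to 13.96 CPM in the 40 KO libraries and 35.9 to 73.8 CPM in the 38 WT libraries.

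A few libraries stood apart from their labels. Xist was at 0 CPM and Ddx3y at 73.4 CPM in 1 library labelled female (mouse 23, WT, prefrontal cortex). The other 38 female libraries had Xist at 358 CPM or more and Ddx3y at 1.0999 CPM or less. Summed over 9 markers of striatal projection neurons, 10 dorsal striatum libraries held 4574 to 9361 CPM. The other two, KO mouse 10 and WT mouse 23, held 447 and 266 CPM, with 2238 and 2322 CPM of 7 cortical and hippocampal excitatory neuron markers. In the ventral striatum, KO mouse 10 held 1085 and WT mouse 13 held 477 CPM of the striatal markers, against 1752 to 9420 CPM in the other 10. The ventral hippocampus library of KO mouse 6 held 4180 CPM of them, against 163 to 291 CPM in the other 11. Excitatory markers were at 624 CPM in the dorsal hippocampus of WT mouse 23 and 299 CPM in the amygdala of WT mouse 12, where every other library of those regions held at least 1417 and 903 CPM. The amygdala library of WT mouse 12 also held 1629 CPM of hypothalamus markers. It had the highest Glra1, Glra2 and Slc6a9 of that region, at 6.31, 73.9 and 108 CPM. Tests between regions and between genotypes were repeated without these 7 libraries, and their values without them are given where a call changed. The levels given for each region include them unless stated otherwise. The choice did not apply 1 rule to all regions. Striatal markers were also high in amygdala KO mouse 6 (2302 CPM) and prefrontal cortex KO mouse 5 (2134 CPM). Choroid plexus markers reached 9094 CPM in amygdala KO mouse 5. Those libraries were kept.

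Glrb had the highest level of the 6 genes in each library set and Glra1 the lowest. Over the 78 libraries the mean level was 235 CPM ± 50.8 (SD, n = 78) for Glrb, 80.6 ± 15.7 for Gphn, 53.5 ± 25.2 for Slc6a9, 23.1 ± 16.2 for Glra2, 18.9 ± 18.03 for Glra3 and 1.07 ± 1.83 for Glra1. The subunit and scaffold genes Glrb and Gphn varied little between regions, with 1.73-fold and 1.61-fold between the highest and the lowest region mean. Among the alpha subunits the span was 4.78-fold for Glra2 and 8.36-fold for Glra3, and for Slc6a9 it was 2.46-fold. The spans of Glra2 (amygdala over cortex), Gphn and Slc6a9 (both ventral striatum over cortex) cross the deeper and shallower sets. In these spans region and set cannot be told apart. Glra2, Glra3, Glrb, Gphn and Slc6a9 reached the floor in 77, 76, 78, 78 and 78 libraries, and Glra1 in 31.

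**Figure D1:**
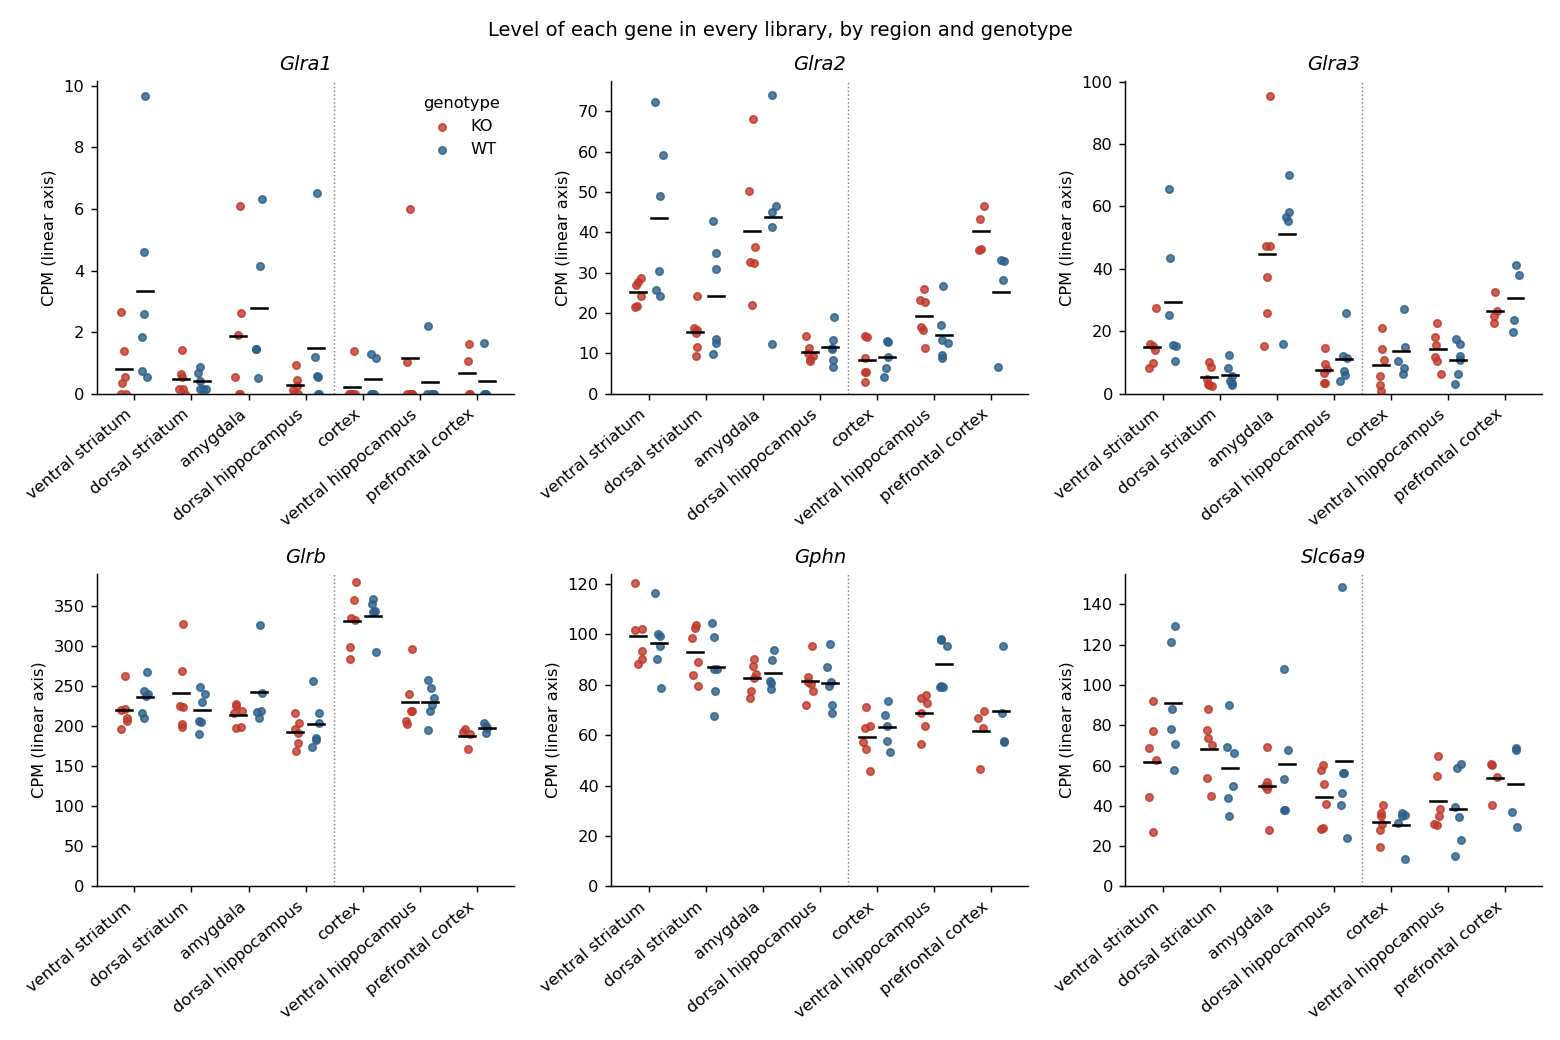
CPM of each gene in every library (points, linear axis), by region and genotype, with black bars for group means; the dotted line parts the deeper set (left) from the shallower set (right). Glra2 and Glra3 peak in the amygdala, at means of 41.9 and 47.7 CPM, Glrb in the cortex, at 334 CPM, and most Glra1 points lie near 0.

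Genes can be compared with each other only per length, here CPM per kb of exon with the union of exons in GENCODE M21. On that scale Glra2 made up 67.1% (cortex) to 88.7% (dorsal striatum) of the summed alpha subunit level, and Glra3 8.75% (dorsal striatum) to 29.4% (cortex). Glra1's share, given for the deeper regions alone because its counts were too few elsewhere, was 7.51% in dorsal hippocampus, 6.07% in ventral striatum, 4.86% in amygdala and 2.59% in dorsal striatum. Without the libraries that stood apart it was 3.59%, 4.55%, 4.31% and 1.65%, so the order of the regions rested on them. In CPM, Glra3 exceeded Glra2 in the amygdala; per kb it did not, at 5.18 against 13.3 CPM per kb, since its exons span 9.208 kb against 3.15 kb. Glrb was above the alpha sum in every region, from 2.51 times (amygdala) and 3.02 times (prefrontal cortex) to 17.3 times (cortex). These ratios are of RNA and say nothing of assembled channels.

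**Figure D2:**
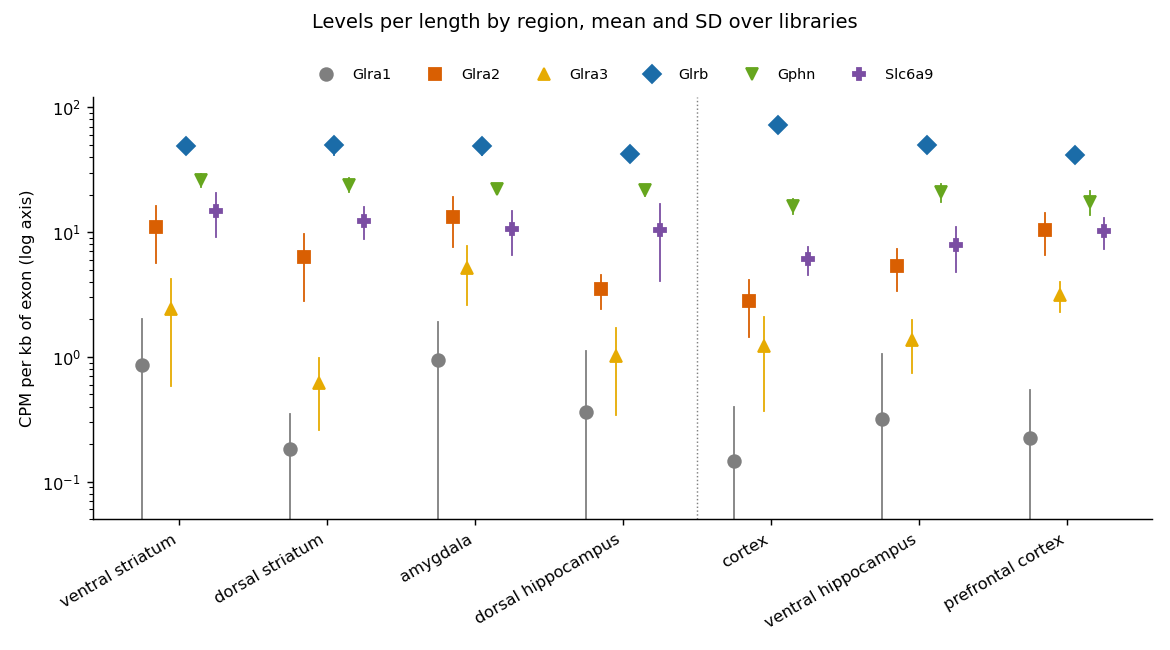
Level per length (CPM per kb of exon, log axis) of the 6 genes in 7 regions; points are means and lines span 1 SD over libraries, with lower ends drawn no further than 0.05. Glrb lies at 41.5 to 71.7 CPM per kb in every region, and Glra2 at 2.79 to 13.3, above Glra3 throughout.

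Promoters are shown for Glra2 and Glra3, the alpha subunit genes that reached the floor in most libraries, and for Glrb and Gphn, which varied least by region. RefSeq starts on GRCm38.p6 were found for 5 of the 6 genes (Glra1 was not among them). For Gphn the GENCODE M21 gene begins at base 78226379, before the RefSeq start, so the window printed lies within that gene. Each run is the 250 bases before the start, 5′ to 3′ on the gene's strand, with CG pairs in capitals:
Glra2, chrX:165327394-165327643, minus strand: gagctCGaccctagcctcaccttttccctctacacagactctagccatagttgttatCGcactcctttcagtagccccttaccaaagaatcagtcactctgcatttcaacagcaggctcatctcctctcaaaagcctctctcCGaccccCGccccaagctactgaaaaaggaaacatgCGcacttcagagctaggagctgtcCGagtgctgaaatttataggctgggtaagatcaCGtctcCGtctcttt
Glra3, chr8:55940168-55940417, plus strand: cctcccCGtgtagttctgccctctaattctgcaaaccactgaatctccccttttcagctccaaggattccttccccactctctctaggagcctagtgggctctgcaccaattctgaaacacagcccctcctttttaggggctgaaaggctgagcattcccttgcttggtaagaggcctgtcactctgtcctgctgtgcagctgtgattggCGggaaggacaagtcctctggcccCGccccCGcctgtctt
Glrb, chr3:80913661-80913910, minus strand: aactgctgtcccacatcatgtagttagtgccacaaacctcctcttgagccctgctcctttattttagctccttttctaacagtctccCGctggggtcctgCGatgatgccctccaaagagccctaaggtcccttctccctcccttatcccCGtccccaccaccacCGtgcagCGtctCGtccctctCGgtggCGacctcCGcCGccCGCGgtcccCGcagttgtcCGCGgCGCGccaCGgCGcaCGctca
Gphn, chr12:78226405-78226654, plus strand: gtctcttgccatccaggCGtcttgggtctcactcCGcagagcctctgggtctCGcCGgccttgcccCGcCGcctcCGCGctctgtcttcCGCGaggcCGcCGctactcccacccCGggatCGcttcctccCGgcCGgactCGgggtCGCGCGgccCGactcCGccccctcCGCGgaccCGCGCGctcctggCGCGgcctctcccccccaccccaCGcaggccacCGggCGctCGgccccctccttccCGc
Glra2 and Glra3 held 8 and 4 CG pairs, and Glrb and Gphn 20 and 34. The median of 32851 promoters was 6, and 43%, 62.2%, 17.95% and 3.525% of them, respectively, held at least as many. The letters TATAAA, on either strand, occurred in the Glra2 window and in none of the other three printed (12.4% of promoters), and GGGCGG, a GC box, in all 4 (32.7% of promoters). These matches describe the letters and are no evidence of binding.

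Glra2, the alpha2 subunit gene (X:165129017-165327393, minus strand, GRCm38), was highest in the amygdala at 41.9 CPM ± 18.1 (SD, n = 11). Means in the other regions were 34.3 ± 16.6 (n = 12) in ventral striatum, 32.7 ± 12.1 (n = 8) in prefrontal cortex, 19.8 ± 10.9 (n = 12) in dorsal striatum, 16.97 ± 6.29 (n = 12) in ventral hippocampus, 10.95 ± 3.33 (n = 12) in dorsal hippocampus and 8.78 ± 4.22 (n = 11) in cortex. Amygdala libraries ran from 12.4 through a median of 41.4 to 73.9 CPM, and those of the dorsal hippocampus from 6.63 through 10.5 to 18.9 CPM. The ranges overlapped between 12.4 and 18.9 CPM, both values from WT mouse 23, whose dorsal hippocampus library stood apart. The other libraries were at 21.98 CPM or more in amygdala and at 14.4 CPM or less in dorsal hippocampus. Region pairs were tested with edgeR's quasi-likelihood test, adjusted by the Benjamini-Hochberg method over all genes tested. The amygdala and ventral striatum, neighbours in this order, did not pass (log2 difference -0.35 ± 0.22 (SE) for ventral striatum minus amygdala, 95% interval -0.80 to 0.11, adjusted p = 0.209). Dorsal hippocampus lay below the other three deeper regions, by 1.88 ± 0.24 on the log2 scale for amygdala (adjusted p = 2.27e-08), 1.53 ± 0.23 for ventral striatum (adjusted p = 3.84e-07) and 0.78 ± 0.23 for dorsal striatum (adjusted p = 0.00469). Ventral striatum exceeded dorsal striatum by 0.76 ± 0.22 (adjusted p = 0.0193); without the libraries that stood apart the difference was 0.52 ± 0.22 and the adjusted p 0.0852. That call was also lost without mouse 11 (0.61, adjusted p = 0.0815) and without mouse 12 (0.67, adjusted p = 0.0601). Within the shallower set, cortex lay below prefrontal cortex (-1.80 ± 0.26, adjusted p = 1.4e-06) and the ventral hippocampus lay between them, apart from both.

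Glra3, the alpha3 subunit gene (8:55940460-56130070, plus strand), had a mean of 47.7 CPM ± 23.8 (SD, n = 11) in the amygdala and 28.7 ± 7.72 (n = 8) in the prefrontal cortex. It averaged 22.2 ± 16.8 (n = 12) in ventral striatum, 12.6 ± 5.75 (n = 12) in ventral hippocampus, 11.2 ± 7.84 (n = 11) in cortex, 9.37 ± 6.23 (n = 12) in dorsal hippocampus and 5.71 ± 3.31 (n = 12) in dorsal striatum. Dorsal striatum ranged from 2.49 through a median of 4.39 to 12.3 CPM, and the amygdala from 15.2 through 47.5 to 95.4 CPM, with no overlap. The difference was -3.12 ± 0.35 on the log2 scale (dorsal striatum minus amygdala, adjusted p = 5.75e-10), and -3.05 without the libraries that stood apart. Ventral striatum exceeded dorsal striatum by 1.90 ± 0.34 (adjusted p = 1.72e-04), or 1.65 ± 0.34 without those libraries (adjusted p = 6.55e-04), and lay below the amygdala by 1.22 (-1.22 ± 0.32, adjusted p = 0.0015). Dorsal hippocampus and dorsal striatum did not pass (dorsal striatum minus dorsal hippocampus -0.73 ± 0.35, 95% interval -1.43 to -0.03, adjusted p = 0.0738, passing without mouse 1 or 24 at -0.83 and -0.89), nor did cortex and ventral hippocampus (cortex minus ventral hippocampus -0.12 ± 0.30, adjusted p = 0.809). Within the deeper set, dorsal striatum had the lowest mean of Glra3, whereas dorsal hippocampus had the lowest mean of Glra2.

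Glra1, the alpha1 subunit gene (11:55514238-55608198, minus strand), reached the floor of 3 counts in 31 of 78 libraries. Its 469 counts came mostly from the amygdala (198 counts, 2.28 CPM ± 2.29, SD, n = 11) and the ventral striatum (146 counts, 2.07 ± 2.75, n = 12). Without the libraries that stood apart these means were 1.87 ± 1.96 (n = 10) and 1.38 ± 1.50 (n = 10). The cortex, ventral hippocampus and prefrontal cortex gave 3, 8 and 5 counts, so a level there was not measurable at this depth. Dorsal striatum lay below the amygdala (log2 difference -2.32 ± 0.73, adjusted p = 0.00634), and the other 5 pairs of the deeper set did not pass. The gene only just passed the filter on low counts, through libraries of the other regions where it was high. Being tested thus depended on those regions, so the calls for this gene decide nothing about differences between regions. No dorsal striatum library exceeded 1.41 CPM, on 37 counts in that region. With 1 mouse left out, the gene was tested in 8 of 12 fits, so these calls concern a gene at the limit of measurement. Without mouse 23, dorsal hippocampus lay below ventral striatum by 2.27 (adjusted p = 0.00534) and below amygdala by 2.56 (adjusted p = 0.00237), and ventral striatum exceeded dorsal striatum by 2.20 (adjusted p = 0.0256), which also passed without mouse 10 (2.38, adjusted p = 0.0254). The highest library, the ventral striatum of WT mouse 13 at 9.67 CPM, is 1 of those that stood apart. Without the 7 libraries the gene fell under the filter on low counts and no pair of regions could be tested.

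Counts of called genes for these pairs stand beside a high background. Members called were 2 of 6 for ventral minus dorsal striatum (13.3% of all genes tested were called), 2 of 6 for ventral striatum minus amygdala (46.8%), 3 of 6 for ventral striatum minus dorsal hippocampus (53.5%), 3 of 6 for dorsal striatum minus amygdala (55.2%), 2 of 6 for dorsal striatum minus dorsal hippocampus (54.4%) and 2 of 6 for amygdala minus dorsal hippocampus (38.8%). In the shallower set they were 3 of 5 for cortex minus ventral hippocampus (29.4%), 4 of 5 for cortex minus prefrontal cortex (39.3%) and 4 of 5 for ventral hippocampus minus prefrontal cortex (30.8%). With so many genes differing between regions, these shares are not a result about the 6 genes. The members called for dorsal striatum minus amygdala include Glra1, with the limit given above. With the mouse as a replicate block, since the labels give the mouse of each library, Gphn in the last pair did not pass (0.30, adjusted p = 0.0518), nor did it with no filter on low counts (0.31, adjusted p = 0.0683).

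Glrb, the beta subunit gene (3:80843599-80913660, minus strand), was highest in the cortex, at 334 CPM ± 30.3 (SD, n = 11), with libraries from 284 through a median of 342 to 380 CPM. It averaged 231 ± 38.3 (n = 12) in dorsal striatum, 230 ± 27.7 (n = 12) in ventral hippocampus, 228 ± 22.6 (n = 12) in ventral striatum, 227 ± 34.9 (n = 11) in amygdala, 198 ± 24.3 (n = 12) in dorsal hippocampus and 193 ± 9.94 (n = 8) in prefrontal cortex. The prefrontal cortex, at 171 to 204 CPM, did not overlap the cortex. Cortex exceeded prefrontal cortex by 0.87 ± 0.08 (log2, adjusted p = 2.36e-10) and ventral hippocampus by 0.57 ± 0.07 (adjusted p = 1.02e-08), where the alpha2 and alpha3 genes had been lower in cortex than in prefrontal cortex. Among the deeper regions, dorsal striatum exceeded dorsal hippocampus by 0.20 ± 0.08 (adjusted p = 0.0323). Without the libraries that stood apart the difference was 0.14 (adjusted p = 0.0810), and it also missed the threshold without mouse 3, 4, 6, 10 or 11, with 0.12 the lowest of these values (mouse 10) and adjusted p-values of 0.0535 to 0.169. Amygdala minus dorsal hippocampus passed without the libraries that stood apart, at 0.20 (adjusted p = 0.0233; 0.15 ± 0.08 and adjusted p = 0.125 with all libraries). The 2 dorsal striatum libraries with cortical markers had Glrb at 328.0 and 249.2 CPM, the highest of their genotypes.

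Gphn, the gephyrin gene (12:78226379-78684772, plus strand), averaged 98.0 CPM ± 11.7 (SD, n = 12) in ventral striatum and 89.9 ± 11.8 (n = 12) in dorsal striatum. Lower means were found in amygdala (83.7 ± 6.07, n = 11), dorsal hippocampus (81.1 ± 8.51, n = 12), ventral hippocampus (78.4 ± 13.1, n = 12), prefrontal cortex (65.6 ± 14.3, n = 8) and cortex (61.05 ± 8.27, n = 11). Ventral striatum exceeded amygdala by 0.22 ± 0.08 (log2, adjusted p = 0.0133) and dorsal hippocampus by 0.21 ± 0.07 (adjusted p = 0.0149), but did not differ from dorsal striatum beyond the error (0.10 ± 0.07, 95% interval -0.05 to 0.25, adjusted p = 0.393). Ventral hippocampus exceeded cortex (cortex minus ventral hippocampus -0.30 ± 0.09, adjusted p = 0.0132) and prefrontal cortex (0.30 ± 0.10, adjusted p = 0.0215). The excess of the ventral striatum was not called without mouse 2, at 0.18 over amygdala (adjusted p = 0.0554) and 0.16 over dorsal hippocampus (adjusted p = 0.0830), and over amygdala it was not called with no filter on low counts (0.21, adjusted p = 0.0567). That of the ventral hippocampus over prefrontal cortex was not called without mouse 6, 11 or 23 (0.24 to 0.27, adjusted p = 0.0516 to 0.0850) or with the prefrontal library labelled female WT, mouse 23, left out (0.26, adjusted p = 0.0537).

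Slc6a9, the GlyT1 gene (4:117834506-117875198, plus strand), averaged 76.5 CPM ± 29.1 (SD, n = 12) in ventral striatum, 63.5 ± 17.9 (n = 12) in dorsal striatum, 54.8 ± 21.4 (n = 11) in amygdala and 53.3 ± 32.4 (n = 12) in dorsal hippocampus. In the shallower set it averaged 52.4 ± 14.9 (n = 8) in prefrontal cortex, 40.5 ± 15.9 (n = 12) in ventral hippocampus and 31.1 ± 7.99 (n = 11) in cortex. None of the 6 pairs of the deeper set passed, and prefrontal cortex exceeded cortex (cortex minus prefrontal cortex -0.66 ± 0.21, adjusted p = 0.0102), though not without mouse 3 (-0.48, adjusted p = 0.0632). Without the libraries that stood apart, both striatal regions exceeded both of the others: ventral striatum exceeded amygdala by 0.45 ± 0.18 (adjusted p = 0.0356) and dorsal hippocampus by 0.54 ± 0.18 (adjusted p = 0.00965), and dorsal striatum exceeded them by 0.47 ± 0.18 (adjusted p = 0.0225) and 0.55 ± 0.17 (adjusted p = 0.00648). The test was also passed for ventral striatum over dorsal hippocampus without mouse 6 (0.58, adjusted p = 0.0235) or mouse 23 (0.69, adjusted p = 0.0020) for dorsal striatum over dorsal hippocampus without mouse 23 (0.51, adjusted p = 0.0198), and for ventral striatum over amygdala without mouse 12 (0.56, adjusted p = 0.0409). WT mouse 23 had 149 CPM in the dorsal hippocampus, and the other 11 libraries of the region ran from 24.1 to 60.1 CPM. In the annotation, 30.2% of the exonic bases of Slc6a9 are overlapped by the opposite-strand genes B4galt2, Ccdc24 and Gm17114. The strand setting of the counting is not given in the sources used here, so reads from those stretches cannot be told apart. Overlaps were 5.84% for Glra1 (Gm12236) and 3.92% for Gphn (Gm48226), and Glra2, Glra3 and Glrb had none.

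Genes around the receptor were followed in a list of 25. Glra4, a further alpha subunit gene, reached a mean of 0.897 CPM in the amygdala and gave 129 counts in all 78 libraries. Slc6a5, the GlyT2 gene, gave 76 counts in all, and reached the floor in 9 libraries. Markers of hindbrain glycinergic neurons, a list of 5 with Slc6a5, summed to 6.002 CPM or less in every library, and Hoxb5 and Hoxb3 were under the floor in every region and genotype. Slc32a1, the vesicular transporter that loads GABA and glycine, ran from 79.0 CPM in dorsal hippocampus to 341 in ventral striatum (means of 12 libraries each). Gldc, of the glycine cleavage system, had means from 21.4 (ventral striatum) to 47.3 CPM (ventral hippocampus), and Slc7a10, a carrier of small neutral amino acids in astrocytes, from 24.3 (prefrontal cortex) to 30.2 CPM (cortex). In the 6 deeper pairs, in the order given above, 3, 8, 6, 8, 8 and 5 of the 23 list genes tested were called higher and 4, 5, 9, 5, 6 and 4 lower, beside 13.3%, 46.8%, 53.5%, 55.2%, 54.4% and 38.8% of all genes called in either direction. In the 3 shallower pairs 1, 2 and 4 of 21 were called higher and 3, 3 and 4 lower, beside 29.4%, 39.3% and 30.8%. These counts are not a result about the list. By value, Gldc was lower in ventral than in dorsal striatum (-0.57, adjusted p = 0.0065), and Slc32a1 was higher in ventral striatum than in dorsal hippocampus (2.06, adjusted p = 1.4e-12).

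Glra2 and Glra3 varied together across the 47 deeper libraries. Pearson's r of log2(CPM + 1) was 0.78 (n = 47), as a description over libraries that share mice and regions. Within a region it was 0.91 in amygdala (n = 11), 0.87 in ventral striatum (n = 12), 0.77 in dorsal hippocampus (n = 12) 0.37 in dorsal striatum (n = 12), 0.32 in cortex (n = 11), 0.29 in prefrontal cortex (n = 8) and 0.26 in ventral hippocampus (n = 12). Without the libraries that stood apart it was 0.74 over 41 deeper libraries, and 0.91 in amygdala (n = 10), 0.78 in ventral striatum (n = 10), 0.60 in dorsal hippocampus (n = 11) and 0.49 in dorsal striatum (n = 10). Glra1 had r of 0.72 with Glra3 and 0.62 with Glra2, or 0.73 and 0.64 without the libraries that stood apart. Many of its values lay near the floor, with medians of 0.288 CPM in dorsal striatum and 0.339 CPM in dorsal hippocampus. Between Glrb and the other members r ran from -0.06 (Gphn) to 0.43 (Glra1). Among 14755 other genes with a mean of at least 1 CPM, Glra3 ranked 196 in likeness to Glra2.

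**Figure D3:**
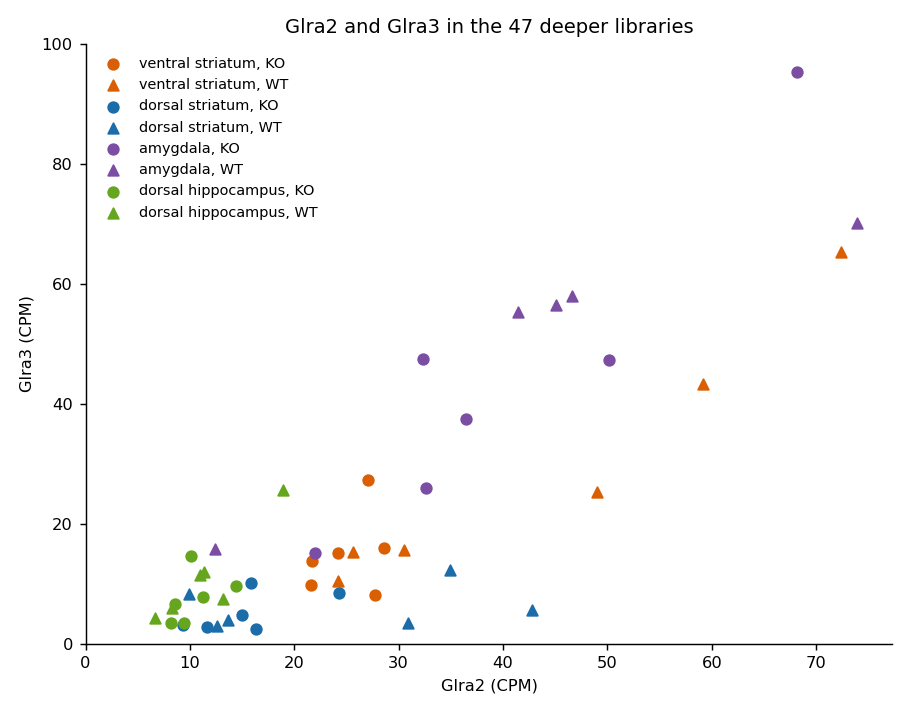
Glra2 against Glra3 (CPM, linear axes) in the 47 deeper libraries, coloured by region, with circles for KO and triangles for WT. Amygdala libraries reach 73.9 CPM of Glra2 and 95.4 CPM of Glra3, while dorsal striatum libraries reach 42.8 CPM of Glra2 with Glra3 at 12.3 CPM or less.

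The 3 most alike genes by the same measure were Zcchc18 (r = 0.92), AW551984 (0.92) and Grb10 (0.92) for Glra2, and Grin3a (0.94), which encodes an NMDA receptor subunit that binds glycine, Camk2d (0.91) and B630019K06Rik (0.90) for Glra3. For Slc6a9 they were 5031439G07Rik (0.90), Endod1 (0.89) and Rgs3 (0.87). Glrb went with Krt222 (0.82), Dcbld2 (0.79) and Mapk9 (0.74), and Gphn with Pja2 (0.81), Dhx36 (0.80) and Akap11 (0.79). Sparse Glra1 counts went with Nap1l5 (0.87), Nova1 (0.85) and Vapb (0.84); without the libraries that stood apart its mean lay under the limit of 1 CPM for this measure. The 15 pairs named for the other members had r of 0.67 to 0.95 without those libraries, and ranks of 1 to 12 among 14733 genes.

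KO and WT mice were compared in each region to ask whether loss of ACSS2 went with a change in these genes in drinking mice. None of the 6 genes passed in any region, in edgeR's quasi-likelihood test with sex as a term and Benjamini-Hochberg adjustment over all genes. Members called were 0 of 5 in ventral striatum (0.00739% of all genes tested were called), 0 of 5 in dorsal striatum (0.00723%), 0 of 6 in amygdala (0.00699%), 0 of 5 in dorsal hippocampus (0.00722%), 0 of 3 in cortex (0.0103%), 0 of 5 in ventral hippocampus (0.00996%) and 0 of 5 in prefrontal cortex (0.0949%). Acss2 was the called gene in the first 6 regions and 1 of 10 in the prefrontal cortex. At an unadjusted p under 0.05 there were 3 of the 34 member tests: Glra2 in ventral striatum, Gphn in ventral hippocampus and Glra2 in prefrontal cortex. Across all genes 990, 208, 475, 373, 651, 506 and 854 genes lay under that unadjusted level in the 7 regions, in the same order. Their shares of all genes tested were 7.31%, 1.5%, 3.32%, 2.69%, 6.7%, 5.04% and 8.11%. KO and WT ranges of CPM were apart in 2 of the 34 member tests: Gphn, 1 of 5 members tested in ventral hippocampus, where 0.149% of all genes tested had ranges apart, and Glra2, 1 of 5 in prefrontal cortex, where 3.68% had. They were apart for 0 members in ventral striatum (0.406% of all genes), dorsal striatum (0.0506%), amygdala (0.175%), dorsal hippocampus (0.0939%) and cortex (0.597%). DESeq2's Wald test called no member in any region either, and its share over all genes was not tallied.

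**Figure D4:**
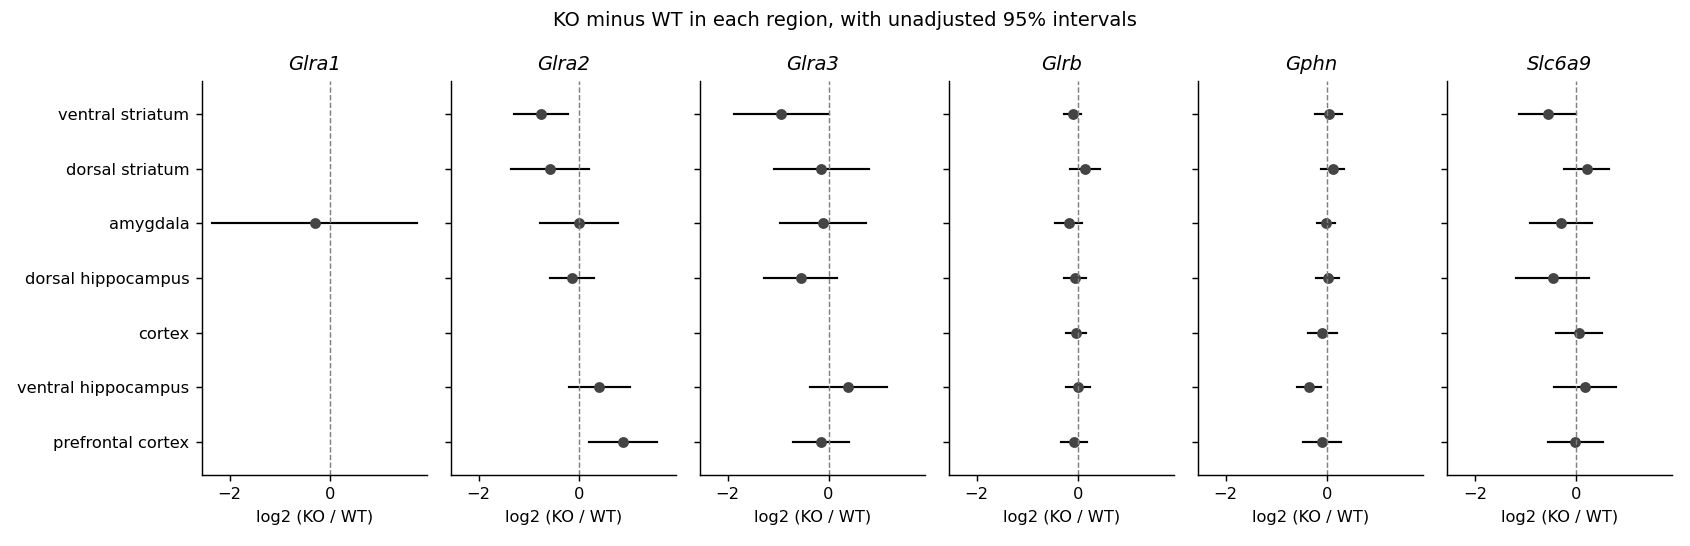
KO minus WT (log2) for each gene and region tested, with points for the estimate and lines for the unadjusted 95% interval. Intervals miss 0 for Glra2 in ventral striatum (-1.29 to -0.23) and prefrontal cortex (0.19 to 1.54) and for Gphn in ventral hippocampus (-0.59 to -0.11), and none of these passed adjustment.

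In the ventral striatum, Glra2 was at 21.6 to 28.6 CPM in the 6 KO libraries (median 25.6) and at 24.1, 25.6, 30.5, 49.0, 59.1 and 72.4 CPM in WT mice 23, 24, 3, 12, 11 and 13. The ranges overlapped, with WT mice 3, 12, 11 and 13 above every KO mouse and WT mice 23 and 24 within the KO range. The log2 difference was -0.76 ± 0.25 (adjusted p = 0.647), and -0.56 ± 0.24 without KO mouse 10 and WT mouse 13 (adjusted p = 0.733). Glra3 ran from 8.14 through a median of 14.5 to 27.4 CPM in KO and from 10.5 through 20.5 to 65.4 CPM in WT, a difference of -0.94 ± 0.44 (adjusted p = 0.647), or -0.52 without mouse 13. Slc6a9 ran from 26.9 through 65.7 to 91.8 CPM in KO and from 57.9 through 83.1 to 129 CPM in WT (-0.56 ± 0.26, adjusted p = 0.647). Glra1 was too low for the filter, with 29 counts in the KO and 117 in the WT libraries. The intervals of Glrb (-0.10 ± 0.08, 95% interval -0.27 to 0.07) and Gphn (0.04 ± 0.12, 95% interval -0.22 to 0.30) included 0.

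Markers of other regions and cell types differed between these groups too. The 6 thalamus and habenula markers summed to 31.3 to 131 CPM in KO and to 47.1 to 619 CPM in WT ventral striatum, and all 6 had higher means in WT. WT mice 13, 11 and 12, the highest in Glra2 and in Glra3 among WT mice, held 619, 181 and 193 CPM of them and the least of the striatal markers in WT, at 477, 1752 and 3493 CPM. KO mouse 10 also held few striatal markers (1085 CPM), with 128 CPM of the thalamus and habenula markers. Its Glra2, at 24.2 CPM, and Glra3, at 15.2 CPM, lay within the range of the other KO mice. That library held the most excitatory neuron markers of the region (1151 CPM, against 174 CPM in WT mouse 13) and the most oligodendrocyte markers (13795 CPM). The 11 oligodendrocyte markers all had higher means in WT, with sums of 4306 to 13795 CPM in KO and 6069 to 11502 CPM in WT. The 9 astrocyte markers summed to 2160 to 3954 CPM in KO and 2868 to 4344 CPM in WT, with all 9 means higher in WT. Hypothalamus markers summed to 2.59 to 18.7 CPM in KO and to 4.36 to 26.4 CPM in WT, with Hcrt under the floor in every ventral striatum library. Other lists went the other way. All 9 striatal projection neuron markers had higher means in KO (sums of 1085 to 7169 CPM, against 477 to 9420 CPM in WT). So did all 7 excitatory neuron markers (62.8 to 1151 CPM, against 112 to 614 CPM). The part of these cells and tissues in the differences was not tested. In bulk tissue, fewer cells of a type and less RNA per cell cannot be told apart.

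**Figure D5:**
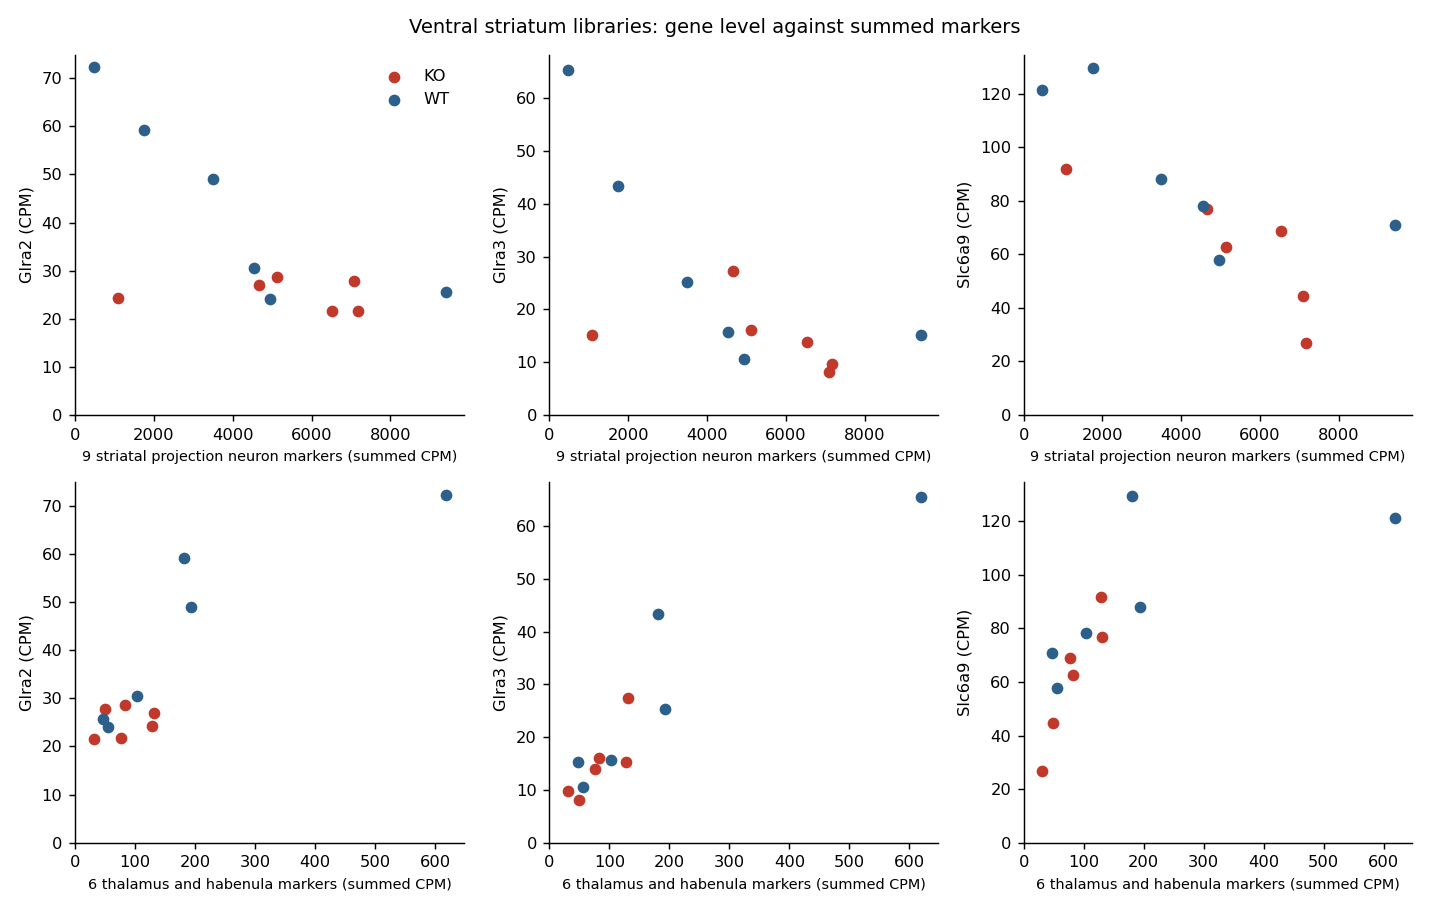
Glra2, Glra3 and Slc6a9 (CPM) in the 12 ventral striatum libraries against the summed CPM of 9 striatal projection neuron markers (top) and of 6 thalamus and habenula markers (bottom), KO in red and WT in blue. The WT library with 477 CPM of striatal markers and 619 CPM of thalamus and habenula markers has the highest Glra2 (72.4 CPM) and Glra3 (65.4 CPM).

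Gphn in the ventral hippocampus was at 56.6, 63.6, 68.9, 72.7, 74.6 and 76.0 CPM in KO mice 1, 10, 5, 6, 2 and 4 and at 78.9, 79.0, 79.4, 95.3, 97.8 and 98.3 CPM in WT mice 12, 11, 13, 3, 24 and 23. Every KO library lay below every WT library, on 410 counts in all in KO and 462 in WT. The difference was -0.35 ± 0.11 (95% interval -0.59 to -0.11, adjusted p = 0.982), with males alone at -0.40 and females alone at -0.30. Without KO mouse 6, whose library held striatal markers, it was -0.37 ± 0.12 (adjusted p = 0.918). Glial markers differed there too: all 11 oligodendrocyte markers had higher means in KO, with sums of 1681 to 10075 CPM against 2586 to 5855 CPM in WT. All 9 astrocyte markers (3743 to 5838 CPM in KO, 4124 to 6188 CPM in WT) and all 5 microglia markers (236 to 347 and 287 to 397 CPM) had higher means in WT. The sums overlapped between genotypes, and their part in the Gphn difference was not tested. In the 6 other regions Gphn had estimates from -0.09 to 0.12, and in dorsal hippocampus it was at 81.5 CPM ± 7.82 (SD, n = 6) in KO and 80.7 ± 9.90 (n = 6) in WT.

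In the prefrontal cortex, Glra2 was at 35.5, 35.8, 43.3 and 46.6 CPM in KO mice 5, 6, 4 and 1 and at 6.53, 28.3, 32.8 and 33.04 CPM in WT mice 11, 3, 12 and 23. All KO libraries lay above all WT libraries, on 178 and 96 counts, in the direction opposite to that in ventral striatum. The difference was 0.87 ± 0.32 (adjusted p = 0.427), and with no filter on low counts its adjusted p was 0.0258, the 1 setting of those tried in which a member was called. It was 0.41 without WT mouse 11 and 1.28 without the library labelled female WT, mouse 23 (adjusted p = 0.124). Striatal projection neuron markers were apart between the genotypes there, at 712 to 2134 CPM in KO and 234 to 396 CPM in WT, with all 9 genes higher in KO; oligodendrocyte markers averaged 7606 and 2514 CPM, with ranges that overlapped. Their part in the Glra2 difference was not tested.

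In the remaining regions the estimates had wider intervals for the alpha subunits than for Glrb and Gphn. Glra2 in the dorsal striatum was at 9.39 to 24.3 CPM in KO (median 15.4) and 9.93 to 42.8 CPM in WT (median 22.3), a difference of -0.59 ± 0.36 (adjusted p = 1.00). In the amygdala it was at 21.98 to 68.2 CPM in KO and 12.4 to 73.9 CPM in WT (-0.0015 ± 0.35, 95% interval -0.77 to 0.77). Glra3 differed by -0.11 ± 0.39 in amygdala, -0.55 ± 0.34 in dorsal hippocampus and 0.39 ± 0.36 in ventral hippocampus. Slc6a9 differed by -0.45 ± 0.33 in dorsal hippocampus and by 0.01 without WT mouse 23, whose library there held 772 CPM of thalamus and habenula markers and 4823 CPM of choroid plexus markers. Glrb estimates lay between -0.18 and 0.14 in the 7 regions, and their 95% intervals between -0.45 and 0.44. Missing the threshold does not show that the genotypes were alike.

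The KO effect was set against sex in the 6 regions with enough libraries. No member passed the sex by genotype interaction: 0 of 6 in ventral striatum and amygdala and 0 of 5 in dorsal striatum, dorsal hippocampus, cortex and ventral hippocampus, where 0% of all genes tested were called in each region by edgeR's quasi-likelihood test. At an unadjusted p under 0.05 there were 542, 692, 673, 193, 571 and 714 genes in ventral striatum, dorsal striatum, amygdala, dorsal hippocampus, cortex and ventral hippocampus. These were 3.84%, 4.76%, 4.42%, 1.33%, 5.41% and 6.63% of the genes tested, and no member was among them. In the ventral striatum, Glra2 differed by -1.01 in males alone and -0.52 in females alone, and the difference between these was -0.51 ± 0.49 (95% interval -1.56 to 0.55, adjusted p = 0.943).

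Averaged over the 4 regions that every mouse had, each mouse gave 1 value, so that libraries of the same mouse entered once. Glra2 was at 4.06 ± 0.17 log2 CPM (SD, n = 6) in KO and 4.26 ± 0.16 (n = 6) in WT mice, with ranges of 3.87 to 4.26 and 3.99 to 4.48. The difference was -0.20 ± 0.10 (limma, 95% interval -0.41 to 0.01, adjusted p = 0.999). Glrb differed by -0.01 ± 0.06 (95% interval -0.13 to 0.11), Gphn by -0.04 ± 0.07, Slc6a9 by -0.10 ± 0.10 and Glra3 by -0.24 ± 0.18. None of these 5 passed, with 0.00658% of all genes called, which was Acss2 (-3.00 ± 0.10). Of the related genes, 0 of 23 passed here, and 0 of the 21 to 23 tested in each region passed in the KO and WT comparisons or, out of 21 to 24, in the interactions.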

How the data were processed

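Whole-number counts per gene were deposited by the authors in 2 tables, 1 per sex, with 55367 symbols each. Per the labels' protocols, poly(A) RNA from 300 ng of total RNA was made into libraries with the NEBNext Ultra II RNA kit. STAR 2.5.2a, SAMtools 1.1, HTSeq 0.6.1, DESeq2 and R 4.0.2, and the builds GRCm38 and mm10, are named per the submitters' processing notes, with no roles. The annotation, strand setting and filters are not given in the sources used here.

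CPM used column totals. Tests used edgeR 4.0.16 (TMM scaling, filterByExpr with a minimum count of 10, quasi-likelihood test) in R 4.3.3, with Benjamini-Hochberg adjustment over all genes tested and a threshold of 0.05. KO and WT were compared within each region with sex as a term, and 9 pairs of regions within each depth set. Over mice, limma 3.58.1 was fitted to log2 CPM (prior count 2) averaged over both striatal and both hippocampal regions. DESeq2 1.42.0 was an alternative. The steps were tested on simulated data. Exon lengths came from GENCODE M21 and promoters from RefSeq.

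All 6 members were named, with a related list of 25 genes of which Glra4, Slc6a5, Slc32a1, Slc7a10 and Gldc got levels (1 further gene of the list is not reported here), and the 3 genes with the highest r to each member. The members and lists were chosen with earlier results of these data known. Libraries of the same mouse were paired by the mouse named in the labels. Their deviations from group means had a mean correlation of 0.0482 over 69 pairs in the deeper set (-0.424 to 0.614) and -0.0156 over 24 pairs in the shallower set.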

Additional observations from a re-analysis of the deposited data

Results flagged for a closer look

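In 9 of 79 groups of 4 to 6 libraries, the highest or lowest library lay far from the others by Dixon's criterion. Its rate of about 1 in 20 by chance holds for independent groups with normally spread values. The groups here held raw CPM, some from few counts, and shared libraries, so their number cannot be set against that rate. Of the 9 groups, 5 came from WT mouse 23.

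In the dorsal hippocampus of WT mouse 23, Glra1 was at 6.51 CPM on 42 counts (other WT mice 0 to 1.19), Glra3 at 25.7 CPM (others 4.24 to 11.97) and Slc6a9 at 149 CPM (others 24.1 to 56.5). That library held 772 CPM of thalamus and habenula markers, 4823 CPM of choroid plexus markers and 16657 CPM of oligodendrocyte markers, whose part in these values was not tested. In the amygdala of the same mouse, Glra3 was at 15.9 CPM (others 55.3 to 70.1) and Glrb at 326 CPM (others 210.0 to 241). Glra1 in the ventral hippocampus of KO mouse 10 was at 6.002 CPM on 5 counts. Glrb was at 292 CPM in the cortex of WT mouse 12 (others 342 to 358) and at 263 CPM in the ventral striatum of KO mouse 10 (others 197 to 221). Slc6a9 was at 13.6 CPM on 13 counts in the cortex of WT mouse 3 (others 31.3 to 36.4).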

How the results depend on the processing

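Depth limited Glra1 throughout and the alpha subunits in cortex, ventral hippocampus and prefrontal cortex, where 3 counts were 2.44 to 4.76 CPM. Leaving out libraries whose region markers stood apart was chosen after seeing the data, and the fit over mice was not run without them. The cause of the changes below was not tested.

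With no filter on low counts, 1 member was called between KO and WT in prefrontal cortex (Glra2, log2 difference 0.88, adjusted p = 0.0258). In that setting 1 member was called for ventral striatum minus amygdala, and the KO minus WT log2 difference of Slc6a9 in prefrontal cortex changed sign (0.00585). In DESeq2's Wald test the log2 difference changed sign for Glra2 in amygdala (0.00271) and Slc6a9 in prefrontal cortex (0.0124). Neither gene was called there. KO minus WT (log2) changed sign in males alone for Glra3 (0.17) and Gphn (-0.00601) in dorsal striatum, Gphn in amygdala (0.0916), and Glrb (0.0114) and Gphn (0.10) in cortex. It did so in females alone for Gphn in ventral striatum (-0.0546), and for Glra1 (0.59), Glra2 (0.32) and Slc6a9 (0.0564) in amygdala. Females alone also reversed Gphn in dorsal hippocampus (-0.0836), Slc6a9 in cortex (-0.21), Glrb (-0.10) and Slc6a9 (-0.15) in ventral hippocampus, and Slc6a9 (0.18) and Gphn (0.0238) in prefrontal cortex. The log2 difference also changed sign for Glra3 in prefrontal cortex without the library labelled female WT, mouse 23 (0.0587). It did so for Gphn over mice in 3 deeper regions alone (0.0565).

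Without the 7 libraries, KO minus WT changed sign for Glra3 in dorsal striatum (0.0109), and for Glra1 (0.0419), Glra2 (0.17) and Slc6a9 (0.00479) in amygdala. It also did so for Glra2 (0.00301), Glrb (0.0129), Slc6a9 (0.00613) and Gphn (-0.0302) in dorsal hippocampus and Glrb in ventral hippocampus (-0.0195). For ventral minus dorsal striatum 1 of 5 members was called, beside 3443 of all 14550 genes tested (1943 of 14593 with all libraries). Slc6a9 was at -0.0177 for that pair, and Glrb was at -0.0537 for dorsal striatum minus amygdala.

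Leaving out 1 mouse at a time, KO minus WT ran through 0 for Gphn in ventral striatum (-0.0344 to 0.14) and Glra3 in dorsal striatum (-0.48 to 0.0889). In amygdala this held for Glra1 (-1.28 to 0.11), Glra2 (-0.27 to 0.23), Glra3 (-0.40 to 0.23), Gphn (-0.0674 to 0.0268) and Slc6a9 (-0.47 to 0.00479). In dorsal hippocampus it held for Gphn (-0.056 to 0.0849), Glra2 (-0.26 to 0.00301), Glrb (-0.0994 to 0.0129) and Slc6a9 (-0.64 to 0.00613), and in cortex for Glrb (-0.0859 to 0.00674) and Slc6a9 (-0.11 to 0.19). In ventral hippocampus it held for Glrb (-0.0677 to 0.0394) and Slc6a9 (-0.00979 to 0.37), in prefrontal cortex for Slc6a9 (-0.31 to 0.25), Gphn (-0.17 to 0.0347) and Glra3 (-0.32 to 0.0587), and over mice for Glrb (-0.0597 to 0.00376) and Gphn (-0.0896 to 0.00476). The sex difference in ventral striatum did so for Slc6a9 (-0.18 to 0.49) and Gphn (-0.0591 to 0.29). Among region differences it held for Glra1 (-0.86 to 0.12) and Glrb (-0.0544 to 0.0561) in ventral striatum minus amygdala, and for Gphn (-0.0509 to 0.00893) and Slc6a9 (-0.095 to 0.27) in amygdala minus dorsal hippocampus. It held too for Glrb in dorsal striatum minus amygdala (-0.0164 to 0.0962), Glra1 in dorsal striatum minus dorsal hippocampus (-1.34 to 0.0662), Gphn in cortex minus prefrontal cortex (-0.0729 to 0.0967) and Glra3 in cortex minus ventral hippocampus (-0.32 to 0.0882). Members called ran from 1 to 3 for ventral striatum minus amygdala, ventral minus dorsal striatum and dorsal striatum minus dorsal hippocampus, and from 2 to 5 for ventral striatum minus dorsal hippocampus. No member was called between KO and WT with a mouse left out.

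With the mouse as a replicate block, Gphn in ventral hippocampus minus prefrontal cortex lost its call (0.30, adjusted p = 0.0518), and no other call on a member in the 9 region pairs changed.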
